A study of Mus musculus with 28 samples.

Results

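Contractile and myofibroblast marker genes were followed across mouse breast cancer cells, myotubes and lung fibroblasts grown alone or in contact. The set held 10 genes of the 55536 in each count table, chosen by name: Acta2, Actg2, Tagln, Myl9, Cnn1, Cnn2, Tpm1 and Tpm2 of the contractile apparatus, and Pdpn and Fap at the cell surface. All 10 were present in all 28 tables. EO771 is a breast cancer line, C2C12 a muscle line labelled as myotubes, and MLg a lung fibroblast line, and every library is labelled wild type. The 7 groups, of 4 libraries each, were EO771 alone, C2C12 alone, MLg alone, EO771 and C2C12 from a direct co-culture of these lines, and EO771 and MLg from a direct co-culture of theirs. The sources used here do not say by what means the 2 lines were parted after co-culture. They also do not say whether the 4 libraries of a group stem from different cultures, so each p-value reflects library-to-library spread that could be purely technical. Levels are CPM, the count scaled to a common library total.

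Smooth muscle actins form thin filaments that slide along myosin, and myosin is switched on through its regulatory light chains. Tropomyosins and calponins bind along the filaments and regulate that contact. Fibroblasts that turn on this set together with matrix genes are called myofibroblasts, and transcription of many of these genes is driven by serum response factor (SRF) with cofactors of the myocardin family, through a DNA element named the CArG box. Podoplanin and fibroblast activation protein are surface proteins often used to mark activated fibroblasts in tumours.

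The CArG box, CCNNNNNNGG in which each N is A or T, was searched on both strands in the RefSeq promoter windows of the GRCm38.p6 build, 300 bases each, for the 7 members found in that table (Acta2, Myl9, Cnn1, Cnn2, Tpm1, Tpm2 and Pdpn). It stood in full in Myl9, at -161 from the start, and in Cnn2, at -56, against 1.63% of 32851 promoters. Offsets here count from the start that each promoter window is built on. They do not count from the GENCODE gene starts given below, which differ. With at least 5 of the 6 middle bases A or T, Acta2 held 2 matches, at -84 and -34, and Myl9 a further match at -99, against 9.98% of all promoters. No match of either form was found in the windows of Cnn1, Tpm1, Tpm2 and Pdpn. The matches are shown in capitals so that the element can be seen in its context. Whether a match goes with the calls below was not tested, and sequence outside these windows was not searched. The stretch for Myl9 is chr2:156775214-156775407 on the plus strand and that for Cnn2 chr10:79988350-79988583 on the plus strand, both ending upstream of any annotated exon. The windows for Acta2 are chr19:34255438-34255467 and chr19:34255388-34255417 on the minus strand. Both matches begin inside the span of a GENCODE transcript of Acta2, and whether they lie in an exon was not checked.
Acta2 at -84: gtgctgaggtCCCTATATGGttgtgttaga
Acta2 at -34: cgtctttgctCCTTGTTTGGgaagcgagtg
Myl9: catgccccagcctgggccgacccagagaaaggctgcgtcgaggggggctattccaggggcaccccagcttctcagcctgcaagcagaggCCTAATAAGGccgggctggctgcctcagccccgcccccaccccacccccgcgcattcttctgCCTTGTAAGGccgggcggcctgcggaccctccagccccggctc
Cnn2: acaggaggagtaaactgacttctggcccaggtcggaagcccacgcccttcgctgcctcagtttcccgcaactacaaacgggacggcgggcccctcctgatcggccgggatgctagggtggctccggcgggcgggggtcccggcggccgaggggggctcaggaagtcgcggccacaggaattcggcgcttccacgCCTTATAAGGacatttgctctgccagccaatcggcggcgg
A match is a stretch of letters and was not tested as a binding site.

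On GRCm38 the genes lie at chr19:34241090-34255590 (Acta2), chr6:83512905-83536265 (Actg2), chr9:45929619-45936058 (Tagln), chr2:156775420-156781658 (Myl9), chr9:22099216-22109630 (Cnn1), chr10:79988584-79996062 (Cnn2), chr9:67022590-67049406 (Tpm1), chr4:43514711-43523765 (Tpm2), chr4:143267431-143299564 (Pdpn) and chr2:62500943-62574075 (Fap). Counts are over annotated exons of the whole gene. The close actins can be told apart at read length: of the 50-base windows of the Acta2 transcript 0.352% recurred in transcripts of other genes, cytoplasmic actin and its pseudogenes among them, and none of Actg2. Tagln is different, since 62.4% of its exon bases overlap exons of the antisense gene Gm48529 and 5.43% those of Pcsk7. No source used here gives the strand setting, so reads in the overlap may have been left uncounted or given to either gene, and the level of Tagln is uncertain.

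The identities of the lines were checked with fixed markers. Of 22 myotube markers, 21 reached 1 CPM in C2C12 alone, 6 in EO771 alone and 5 in MLg alone. Their summed level in C2C12 alone was 4499, 268, 653 and 5461 CPM, with the low values in the 2 libraries carrying the number R3 in their names, and it was 724 CPM in the R3 library of co-cultured C2C12 against 2338 to 3108 CPM in the other 3. Fibroblast markers summed to 24101 to 30714 CPM in MLg alone, to 25266 to 29137 CPM in C2C12 alone and to 199.9 to 223 CPM in EO771 alone, so the ranges of C2C12 and MLg overlap. Of 8 epithelial markers only 1 reached 1 CPM in EO771 alone, and Krt19 and Cldn4 were at 0. The smooth muscle transcription factor Myocd stayed under 0.18 CPM in every library.

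In C2C12 and MLg grown alone the contractile set was led by Acta2, Cnn2 and the tropomyosins, while Tagln, Cnn1 and Fap stayed under 2 CPM in all 3 lines. Per kb of exon, Acta2 led in C2C12 alone at 560 CPM per kb, followed by Pdpn at 213, Tpm2 at 198, Tpm1 at 124, Cnn2 at 98.5 and Myl9 at 52.3. In MLg alone Cnn2 led at 271 CPM per kb, ahead of Acta2 at 217, Tpm1 at 115, Myl9 at 93.4 and Tpm2 at 89.1. EO771 alone had Tpm1 at 77.6, Cnn2 at 36.4 and Tpm2 at 15.4 CPM per kb, and none of the other 7 members reached 3. The order depends on the length used: with the longest transcript in place of all exon bases, Tpm1 took rank 2 and Pdpn rank 4 in C2C12 alone, and 6 of the 10 ranks in MLg alone stayed the same.

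**Figure D1:**
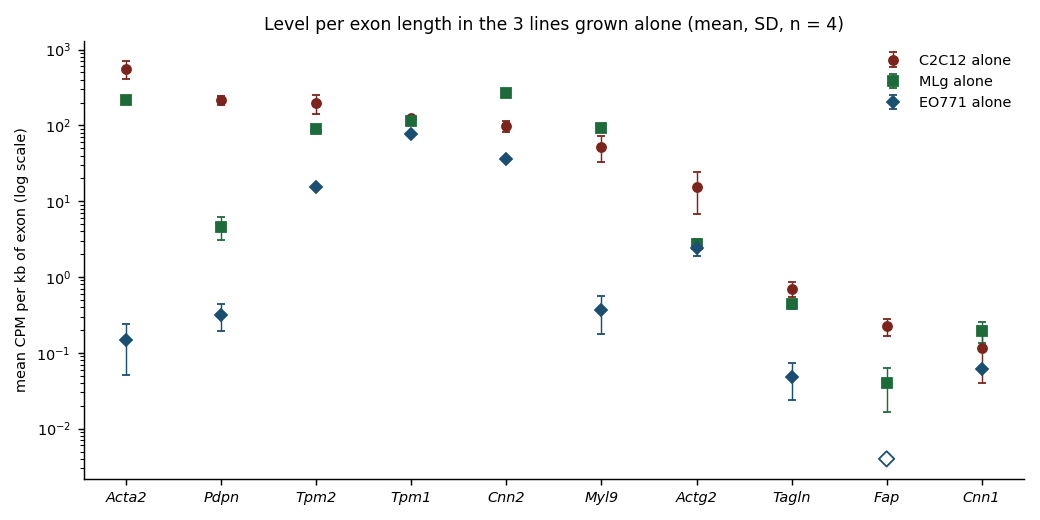
Mean CPM per kb of exon (log axis) for the 10 genes in C2C12, MLg and EO771 alone, with the SD over 4 libraries scaled by length. The open symbol marks a gene with 0 counts in all libraries of the group, Fap in EO771 alone, and the lines come closest at Tpm1.

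C2C12 alone and MLg alone differed in 9 of the 10 members, 7 higher and 2 lower in C2C12, where 61.9% of the 18755 genes tested were called, 31% higher and 30.9% lower (adjusted p under 0.05, edgeR's quasi-likelihood test with Benjamini-Hochberg adjustment, the test behind every adjusted p below). The median log2 difference of the members was 1.08, against -0.03 over all genes tested. Pdpn, which encodes podoplanin, separated the lines most. Its level was 397, 379, 326 and 449 CPM in C2C12 alone and 4.32, 9.54, 9.59 and 10.3 CPM in MLg alone. Every C2C12 library lay far above every MLg library, with a log2 fold change of 5.69 (SE 0.25, adjusted p = 5.78e-10).

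Acta2, the smooth muscle alpha actin that defines myofibroblasts in tissue, was higher in the muscle line. It stood at 876, 1545, 1491 and 1006 CPM in C2C12 alone and at 494, 444, 488 and 483 CPM in MLg alone. All C2C12 values exceeded all MLg values, and the C2C12 libraries split into a high pair, named R3, and a low pair. The log2 fold change was 1.53 (SE 0.21, adjusted p = 2.92e-05). Actg2, the enteric smooth muscle gamma actin, showed the same split, with 11.8, 35.0, 36.1 and 12.6 CPM in C2C12 alone against 3.34 to 4.91 CPM in MLg alone (log2 2.67, SE 0.36, adjusted p = 2.40e-05). The R3 libraries of C2C12 alone, high in both actins, are the ones with the low myotube markers. In co-cultured C2C12, R5-1 had the highest Acta2 (1274 CPM) and Actg2 (32.6 CPM), with myotube markers at 3108 CPM. There R3-1, with markers at 724 CPM, had 1130 and 29.5 CPM. The part of the marker difference in these levels was not tested.

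The beta tropomyosin gene Tpm2, used in skeletal muscle as well, split the other way. Its level was 681, 425, 456 and 747 CPM in C2C12 alone, lower in the R3 pair, and 223, 276, 270 and 268 CPM in MLg alone, and no C2C12 value fell among those of MLg. The log2 fold change was 1.30 (SE 0.14, adjusted p = 3.41e-06). Fap, the surface protease, was 1.70, 1.03, 1.05 and 1.29 CPM in C2C12 alone and 0.0574, 0.257, 0.374 and 0.211 CPM in MLg alone, so it was called higher in C2C12 (log2 2.64, SE 0.46, adjusted p = 0.000487), with 4 to 26 counts in each MLg library.

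Cnn2, a calponin found in many non-muscle cells, and Myl9, a regulatory light chain, went toward the fibroblasts. Cnn2 measured 708, 679, 613 and 666 CPM in MLg alone and 211, 284, 266 and 209 CPM in C2C12 alone, without overlap (log2 -1.30, SE 0.12, adjusted p = 5.51e-07). Myl9 was 102 to 112 CPM in MLg alone and 38.3 to 85.3 CPM in C2C12 alone (log2 -0.66, SE 0.25, adjusted p = 0.0311), and this call was lost when C2C12 R2-1 or R5-1, or MLg R5-2, R6-1 or R6-2, was left out, with adjusted p from 0.0519 to 0.0818. Tpm1 (log2 0.26, SE 0.07, adjusted p = 0.00557) and Tagln (log2 0.85, SE 0.28, adjusted p = 0.0178) were also called higher in C2C12. Scaling by library totals moved the median of all genes to -0.19 and Tpm1 to 0.10 (adjusted p = 0.19), and without the R3 libraries of C2C12 the values were 0.50 for Tagln (adjusted p = 0.22) and 0.20 for Tpm1 (adjusted p = 0.0612). The Tagln call was also lost without C2C12 R3-1 or R3-2 alone, or MLg R3-2 or R6-2, with adjusted p up to 0.068.

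EO771 alone had lower levels of 9 of the 10 members than C2C12 alone, where 42% of the genes tested were called lower, and of 9 of the 10 than MLg alone, where the share was 40.8%. The members' median log2 difference was -3.91 against C2C12 (all genes -0.12) and -3.02 against MLg (all genes -0.08). The exceptions were Cnn1 against C2C12 (log2 -1.12, SE 0.56, adjusted p = 0.0808, and 0.00616 without C2C12 R2-1) and Actg2 against MLg (log2 -0.19, SE 0.36, adjusted p = 0.642). Acta2 was 0.293, 0.590, 0.314 and 0.0842 CPM in EO771 alone. Its log2 fold change was -12.04 (SE 0.36, adjusted p = 1.94e-12) against C2C12. Fap had no count in any of these 4 libraries, which allows up to 0.0209 CPM over the group (3 counts), so its level was at least 60.6-fold higher in C2C12 alone and at least 10.8-fold higher in MLg alone.

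**Figure D2:**
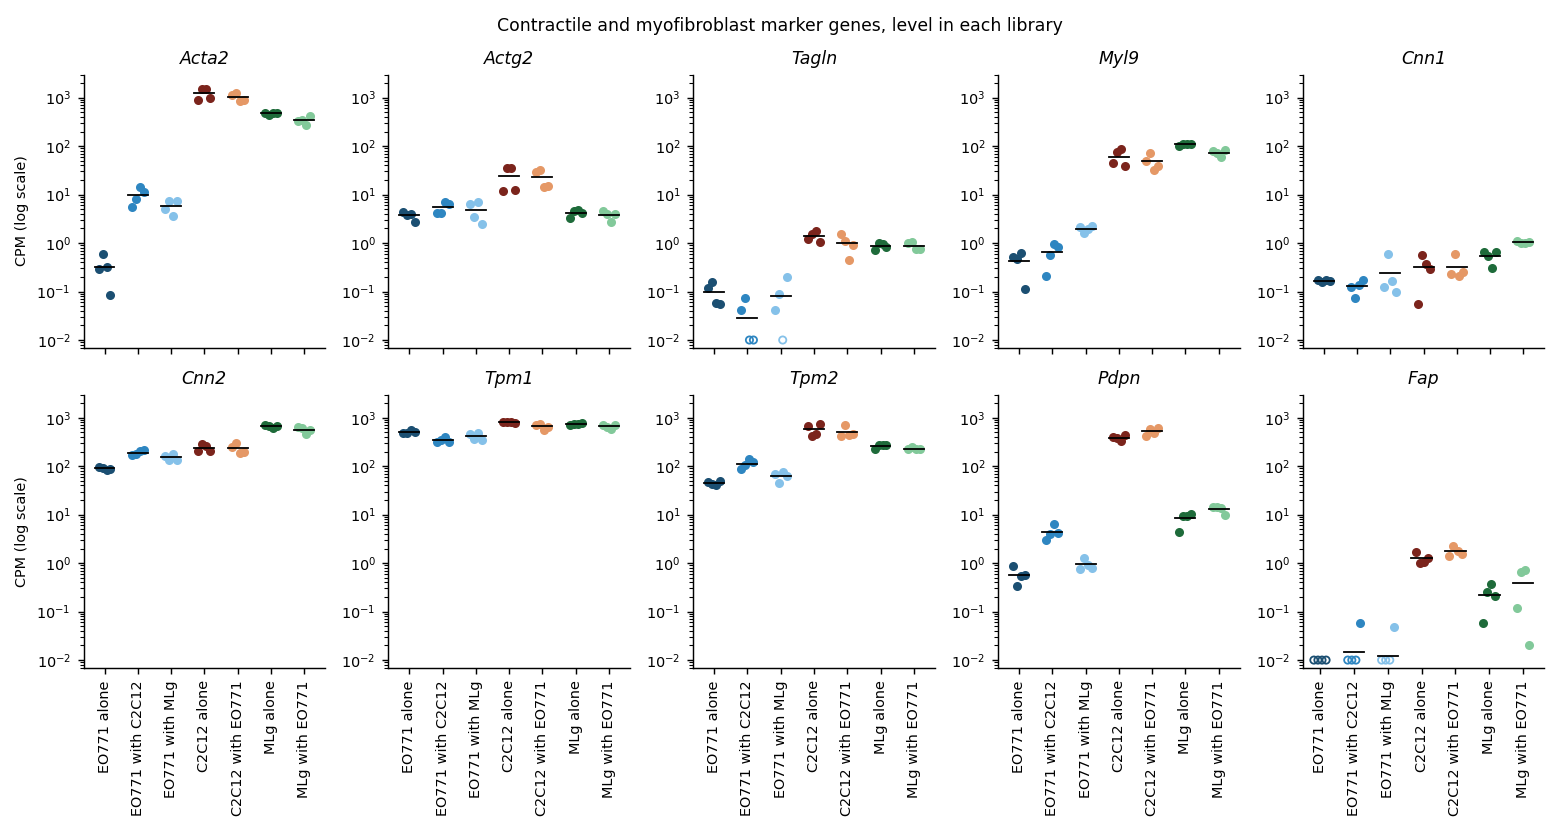
CPM (log axis) of each gene in all 28 libraries, 1 point per library, with the group mean as a line; open points at the foot mark libraries with 0 counts. The Acta2 points of co-cultured EO771 sit between those of EO771 alone and of the partner lines, while Cnn2, Tpm1 and Tpm2 are high in EO771 alone already.

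After contact with C2C12, EO771 libraries had more Acta2, Pdpn, Tpm2 and Cnn2 and less Tpm1. Thus 5 of the 7 members tested were called, 4 higher and 1 lower, where 33% of the 15794 genes tested were called, 18.7% higher and 14.3% lower, and Tagln, Cnn1 and Fap did not pass the filter on low counts. The members' median log2 fold change was 1.01, against 0.00 over all genes. RNA of genes specific to the partner line was also present in these libraries. The 281 genes found in C2C12 and all but absent from EO771 alone were summed in these co-cultured EO771 libraries. They reached 1.54% ± 0.629 (SD, n = 4) of their summed level in co-cultured C2C12. Taken gene by gene, the median share of the 281 genes was 0.971% ± 0.374 (SD, n = 4), from 0.578% to 1.39% by library. The 22 myotube markers stood at 9.98% ± 5.78 (SD, n = 4). The 281 genes were chosen for near absence from EO771 alone, so a rise of these genes within EO771 would also enter the share. For this and the other partner shares below, RNA from partner cells and RNA made by the line itself cannot be told apart.

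Acta2 changed by the largest factor among the members. It was 5.44, 8.11, 14.2 and 11.5 CPM in EO771 with C2C12, every value above the 4 of EO771 alone. The log2 fold change was 4.83 (SE 0.41, adjusted p = 1.18e-07). Those levels were 0.523% to 1.36% of the mean level of co-cultured C2C12. The partner share would bring 16.0 CPM on average, more than the observed rise of 9.48 CPM. Subtracting it library by library left 0 CPM in all 4 libraries. Whether the Acta2 RNA stemmed from C2C12 cells or from EO771 was not tested.

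Pdpn rose from 0.880, 0.333, 0.542 and 0.561 CPM to 3.00, 4.06, 6.49 and 4.14 CPM, with no overlap (log2 2.86, SE 0.34, adjusted p = 4.77e-06). The new levels were 0.576% to 1.25% of those in co-cultured C2C12, and the share would bring 7.99 CPM against a rise of 3.84 CPM. Subtraction again left 0 CPM in all 4 libraries. After subtraction the fitted log2 fold changes turned negative, to -6.57 for Acta2 and -7.41 for Pdpn, values set by counts put to 0.

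Cnn2 kept its rise after subtraction. Its level was 95.1, 91.6, 83.8 and 88.0 CPM in EO771 alone and 166, 175, 205 and 211 CPM with C2C12. All co-cultured values lay above all of EO771 alone, with a log2 fold change of 1.01 (SE 0.11, adjusted p = 1.85e-06). The partner share would bring 3.58 CPM, against a rise of 99.99 CPM, and after subtraction the log2 fold change was 1.02 (adjusted p = 6.11e-06). Without subtraction, the log2 ratio of Cnn2 CPM within libraries sharing an R number was 1.03 to 1.22.

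Tpm2 rose from 46.9, 42.5, 41.8 and 48.5 CPM to 85.8, 103, 142 and 121 CPM (log2 1.26, SE 0.15, adjusted p = 4.76e-06). The groups did not overlap, and the highest value came from the library with the highest myotube markers, 418 CPM. With the partner share subtracted the log2 fold change was 1.19 (adjusted p = 2.60e-05), and with the larger share of the myotube markers it was 0.58 (SE 0.18, adjusted p = 0.0346). Which of the shares applies to Tpm2, a gene that muscle fibres use, was not tested.

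The alpha tropomyosin gene Tpm1 went down, from 473, 481, 548 and 513 CPM to 320, 340, 397 and 319 CPM, without overlap. Its log2 fold change was -0.62 (SE 0.12, adjusted p = 0.000645), and -0.63 after subtraction (adjusted p = 0.00107). Actg2 (log2 0.46, SE 0.29, adjusted p = 0.236) and Myl9 (log2 0.47, SE 0.47, adjusted p = 0.476) were not called. With subtraction the 5 calls became 6, 2 higher (Cnn2, Tpm2) and 4 lower (Acta2, Pdpn, Myl9, Tpm1). Subtraction left Myl9 at 0 CPM in 3 of the 4 libraries. With the median gene share subtracted, Acta2 (adjusted p = 0.222) and Myl9 (adjusted p = 0.162) were not called.

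**Figure D3:**
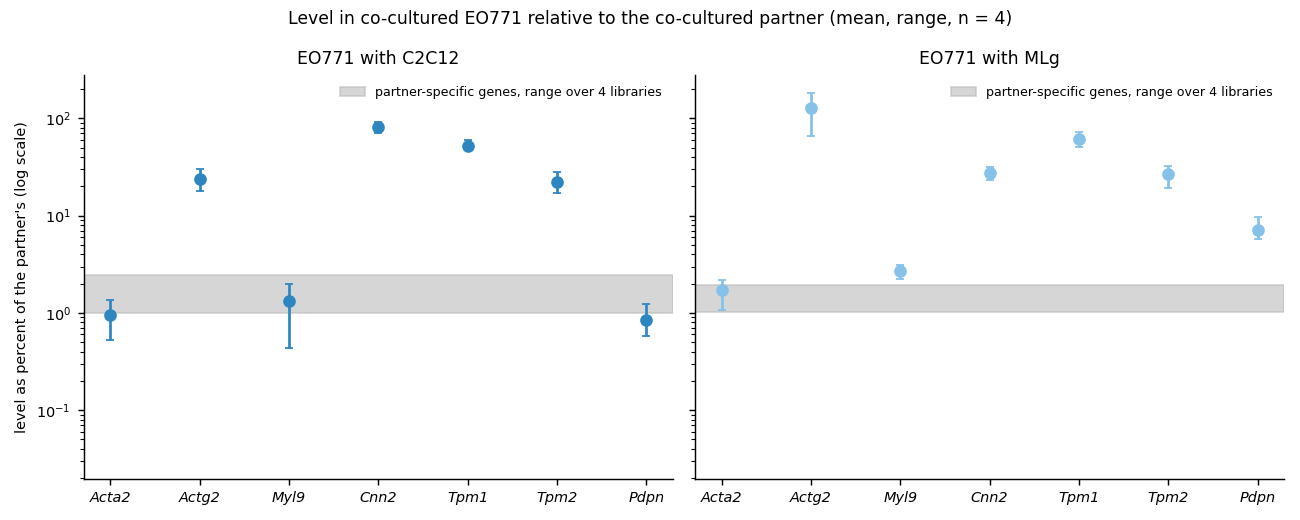
Level in co-cultured EO771 as percent of the mean level in the co-cultured partner (log axis), mean and range over 4 libraries, with the grey band giving the same for partner-specific genes. Acta2, Myl9 and Pdpn lie at or under the band with C2C12, whereas Cnn2, Tpm1 and Tpm2 are far above it with both partners. The percent includes the level EO771 had alone, 89.6 CPM for Cnn2, 504 for Tpm1 and 44.9 for Tpm2. A place above the band therefore does not show a rise. Tagln, Cnn1 and Fap, at low counts, are left out.

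After contact with MLg, 4 of the 7 members tested were called, all higher: Acta2, Myl9, Cnn2 and Tpm2. Of the 15794 genes 9.59% were called, 5.99% higher, and the members' median log2 fold change was 0.71 (all genes 0.01). MLg-specific genes (276 genes) stood at 1.55% ± 0.393 (SD, n = 4) of their MLg level. Acta2 was 4.99, 7.44, 3.68 and 7.42 CPM, every value above EO771 alone (log2 4.18, SE 0.41, adjusted p = 9.53e-07). That was 1.07% to 2.17% of the MLg level. The rise was 5.56 CPM where the share would bring 5.32 CPM, and after subtraction the log2 fold change was 0.90 (adjusted p = 0.695).

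Myl9 was 2.11, 1.63, 1.96 and 2.25 CPM with MLg and 0.528, 0.462, 0.628 and 0.112 CPM alone, without overlap. The log2 fold change of 2.20 (SE 0.45, adjusted p = 0.00273) became 1.02 after subtraction (SE 0.67, adjusted p = 0.479). Its rise was 1.56 CPM where the share would bring 1.14 CPM. Cnn2 was 165, 137, 182 and 134 CPM, all above EO771 alone (log2 0.80, SE 0.11, adjusted p = 5.01e-05), and it was the only member still called after subtraction (log2 0.75, adjusted p = 0.000565). Tpm2, at 68.1, 44.1, 75.2 and 62.7 CPM, overlapped EO771 alone (log2 0.48, SE 0.15, adjusted p = 0.0449), and its call was lost on leaving out any library of the contrast other than EO771 with MLg R5-1, with adjusted p up to 0.152. Tpm1 (log2 -0.28, SE 0.12, adjusted p = 0.177), Pdpn (log2 0.71, SE 0.34, adjusted p = 0.243) and Actg2 (log2 0.39, SE 0.29, adjusted p = 0.504) were not called. Both EO771 contrasts share the libraries of EO771 alone.

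The direct comparison of co-cultured EO771 called 4 of the 7 members, 2 higher and 2 lower with C2C12, where 27.7% of the genes tested were called, 15% higher and 12.7% lower. Pdpn (log2 2.14, SE 0.32, adjusted p = 9.91e-05) and Tpm2 (log2 0.77, SE 0.15, adjusted p = 0.000819) were higher with C2C12. After subtraction Pdpn turned to -7.82 (adjusted p = 3.07e-05), a value set by counts put to 0, and Tpm2 was 0.76 (adjusted p = 0.00186), but 0.07 (adjusted p = 0.803) at the myotube marker share. Myl9 (log2 -1.73, SE 0.44, adjusted p = 0.00725) and Tpm1 (log2 -0.34, SE 0.12, adjusted p = 0.0426) were higher with MLg. After subtraction Myl9 was -4.05 (adjusted p = 0.0025), with 3 of the 4 libraries with C2C12 at 0 CPM. At the median gene share it was -2.38 (adjusted p = 0.0166). In the co-cultured partners mean Pdpn was higher in C2C12 (520 against 13.2 CPM) and mean Myl9 higher in MLg (73.2 against 48.9 CPM). The partners' Myl9 values overlapped, at 58.6 to 84.99 CPM in MLg and 32.8 to 73.7 CPM in C2C12. The part of the partner levels in these differences was not tested. Cnn2 (log2 0.21, SE 0.11, adjusted p = 0.161) and Acta2 (log2 0.65, SE 0.32, adjusted p = 0.137) were not called. The Tpm1 call was lost without R3-1, R5-1 or R5-2 of EO771 with C2C12, or R6-1 or R6-2 of EO771 with MLg, with adjusted p up to 0.135.

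In C2C12 no member was called after contact with EO771, where 2.68% of the 16625 genes tested were called. DESeq2 also called 0 of the 10, and 2 had an unadjusted p under 0.05 in edgeR, Tpm1 and Pdpn. Tpm1 was 802, 815, 812 and 782 CPM alone and 702, 738, 564 and 639 CPM with EO771. All co-cultured values lay lower, with a log2 fold change of -0.33 (SE 0.12, adjusted p = 0.30). Pdpn was 414, 578, 474 and 613 CPM with EO771, in part above the values alone (log2 0.37, SE 0.14, adjusted p = 0.353). Acta2 measured 1130, 1274, 872 and 884 CPM with EO771, overlapping C2C12 alone at 876 to 1545 CPM (log2 -0.30, SE 0.23, adjusted p = 0.746). Libraries sharing a number did not all point alike: Acta2 was -0.43 within R3 and 0.09 within R5 on the log2 scale, Myl9 -0.69 and 0.48, and Actg2 -0.27 and 0.90, whereas Tpm1 was -0.21 and -0.26 and Pdpn 0.23 in both. Since these are bulk cultures, fewer cells of a type and less RNA per cell cannot be told apart.

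MLg fibroblasts had less Acta2 and Myl9, and more Cnn1 by a call near the threshold, after contact with EO771. These were 3 of the 10 members, 1 higher and 2 lower, where 14.7% of the 16823 genes tested were called, 9.89% higher and 4.81% lower. Acta2 was 327, 340, 279 and 425 CPM with EO771, all below MLg alone (log2 -0.46, SE 0.11, adjusted p = 0.0145). Myl9 was 78.7, 70.5, 58.6 and 84.99 CPM against 102 to 112 CPM alone, without overlap (log2 -0.54, SE 0.10, adjusted p = 0.00284). Both falls were of like size within R5 and R6, at -0.44 and -0.65 for Acta2 and -0.48 and -0.78 for Myl9.

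EO771-specific genes (40 genes) stood in these MLg libraries at 8.62% ± 3.25 (SD, n = 4) of their EO771 level. With that share subtracted and the rest rescaled, Acta2 was -0.30 (adjusted p = 0.158) and Myl9 -0.39 (adjusted p = 0.0653), and no member was called. Cnn1, the calponin of smooth muscle, was 1.12, 1.01, 0.988 and 1.04 CPM with EO771 and 0.660, 0.544, 0.302 and 0.648 CPM alone. The groups did not overlap, with 21 to 58 counts in each library (log2 0.97, SE 0.30, adjusted p = 0.0498). The call was lost on leaving out any library of the contrast other than MLg alone R3-2, with adjusted p up to 0.123. It was also lost with even counts halved (adjusted p = 0.0516), library totals (0.0541) or no filter on low counts (0.0826). R5-1 and R6-1 of MLg with EO771 hold even counts only. Pdpn was 14.7, 14.6, 13.9 and 9.62 CPM against 4.32, 9.54, 9.59 and 10.3 CPM (log2 0.68, SE 0.24, adjusted p = 0.073). It was called by DESeq2 (adjusted p = 0.0211) and in edgeR without the library MLg with EO771 R7-1 (log2 0.81, adjusted p = 0.0353).

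**Figure D4:**
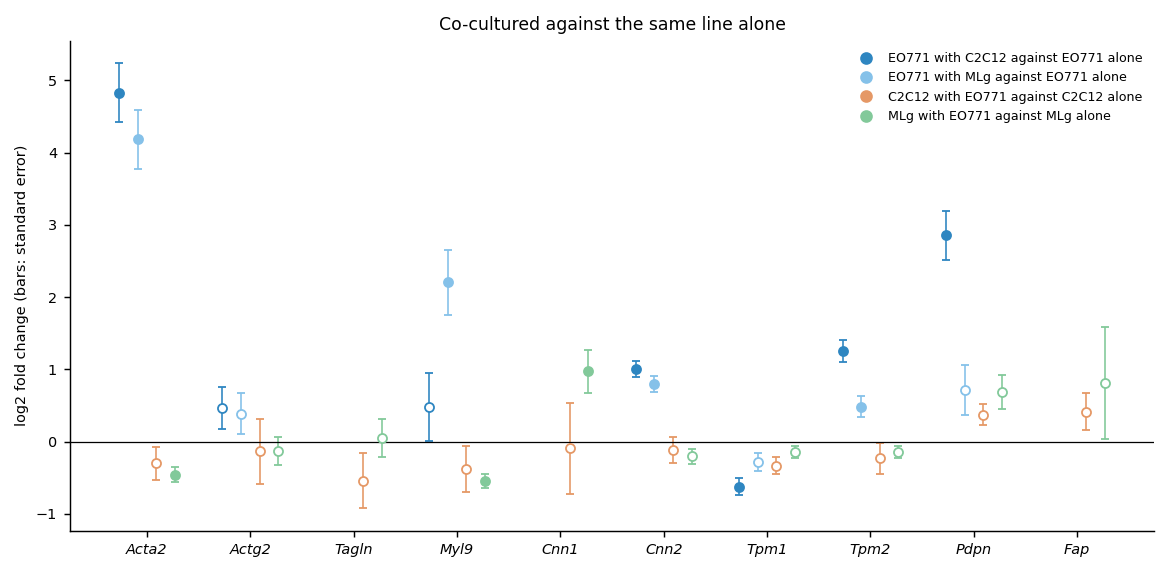
Log2 fold change of each gene in co-culture against the same line alone, with the standard error; filled points had an adjusted p under 0.05, open points did not, and absent points were not tested. Acta2 has values of 4.83 and 4.18 in EO771 and values under 0 in both partner lines.

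The responses of C2C12 and MLg to EO771 were not shown to differ in any member. The interaction called 0 of the 10, where 1.84% of the 18647 genes tested were called. DESeq2 called 0 as well, and none had an unadjusted p under 0.05 in edgeR. The differences on the log2 scale, C2C12 response less MLg response, ran from -1.08 (SE 0.71) for Cnn1 to 0.17 (SE 0.37) for Myl9.

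Ordered over all 7 groups, Acta2 was highest in C2C12 alone at 1230 ± 338 CPM (SD, n = 4), which overlapped co-cultured C2C12 at 1040 ± 196. MLg alone followed at 477 ± 22.4, then co-cultured MLg at 343 ± 60.9, EO771 with C2C12 at 9.80 ± 3.81, EO771 with MLg at 5.88 ± 1.87 and EO771 alone at 0.320 ± 0.208 CPM. Only the C2C12 groups, and the co-cultured EO771 groups, overlapped their neighbour in that order. For Pdpn the order was co-cultured C2C12 (520 ± 92.0 CPM), C2C12 alone (388 ± 50.8), co-cultured MLg (13.2 ± 2.42), MLg alone (8.42 ± 2.76), EO771 with C2C12 (4.42 ± 1.48), EO771 with MLg (0.942 ± 0.242) and EO771 alone (0.579 ± 0.226). Tagln kept within 0.445 to 1.77 CPM in the C2C12 and MLg libraries and did not exceed 0.196 CPM in EO771. The antisense Gm48529, which shares its exons, was 0.302 to 1.17 CPM in the same C2C12 and MLg libraries. Cnn1 was under 1.13 CPM everywhere.

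The genes most like Acta2 over the 7 group means were Thbs1, Tns1 and Pmepa1, of 10902 genes with a mean of at least 5 CPM, with root mean square differences of the centred log2 levels of 0.159, 0.219 and 0.229. For Pdpn they were Has2, Hoxc11 and Edil3 (0.282, 0.321 and 0.369). Tagln was nearest to Isoc1, Gpr155 and Hoxc9 (0.163, 0.185 and 0.193) and Fap to Glul, Vcan and Hoxa10 (0.259, 0.294 and 0.306). Thbs1 encodes a matrix protein, and its mean ran from 1.70 CPM in EO771 alone to 7628 CPM in C2C12 alone. Has2, which makes hyaluronan, ran from 0 to 59.2 CPM.

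The wider actomyosin and SRF target list held 43 genes. In EO771 with C2C12, 17 of the 40 tested rose and 1 fell, with a median log2 fold change of 0.29 against 0.00 over all genes, of which 18.7% rose and 14.3% fell. Among the genes with a mean of at least 5 CPM, the largest rises were in Acta1, the skeletal actin (log2 5.10, SE 0.53, adjusted p = 1.07e-06), Des, the muscle intermediate filament (log2 4.91, SE 0.42, adjusted p = 1.19e-07) and Palld, an actin-bundling protein (log2 1.66, SE 0.12, adjusted p = 1.65e-08). Acta1 and Des stood at 11.9% and 5.36% of their C2C12 level, and Palld at 32.7%. The member that fell was Pdlim7 (log2 -0.35, SE 0.12, adjusted p = 0.0364). With the partner share subtracted 15 of 39 rose and 0 fell; with the myotube marker share 9 rose and 4 fell.

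In EO771 with MLg, 6 of the 40 rose and 3 fell, with a median of 0.07 (all genes 0.01), where 9.59% of all genes were called, 5.99% higher. Palld (log2 0.82, adjusted p = 8.38e-05) and Ppp1r12b, a myosin phosphatase subunit (log2 0.73, adjusted p = 0.00295), were among those that rose. Tagln2, an actin-binding relative of Tagln (log2 -0.97, adjusted p = 1.98e-05), Pdlim7 (log2 -0.93, adjusted p = 4.16e-05) and the SRF cofactor Mrtfa (log2 -0.54, adjusted p = 0.00343) fell. After subtraction 2 rose and 3 fell. In C2C12 with EO771, 0 of 41 were called by edgeR, 1 by DESeq2, and 5 had an unadjusted p under 0.05. In MLg with EO771, 7 of 40 were called (17.5%), near the 14.7% over all genes. Of these 2 rose and 5 fell, among them Myh10, a non-muscle myosin (log2 -0.67, adjusted p = 0.00202), Lmod1, an actin nucleator (log2 -0.49, adjusted p = 0.0233), and Cald1, which binds actin and tropomyosin (log2 -0.43, adjusted p = 0.00883), while Tagln2 (log2 0.38, adjusted p = 0.019) and Csrp1 (log2 0.37, adjusted p = 0.0333) rose. After subtraction 2 rose and 2 fell.

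Of the SRF factors, Mrtfa alone was called in the contrasts of co-cultured EO771. It was lower with MLg than in EO771 alone, and higher with C2C12 than with MLg (log2 0.54, SE 0.11, adjusted p = 0.00193). Srf was 59.8 to 73.0 CPM in EO771 alone, 58.0 to 66.2 CPM with C2C12 and 61.1 to 70.6 CPM with MLg, so the groups overlapped and neither change was called (adjusted p = 0.206 and 0.918). Mrtfa was 46.4, 56.9, 55.6 and 49.9 CPM in EO771 alone and 32.3, 34.8, 34.0 and 41.9 CPM with MLg, without overlap, while it was 47.1 to 67.0 CPM with C2C12. Mrtfb was not called with either partner against EO771 alone (adjusted p = 0.848 and 0.482). Srf was higher in EO771 alone than in C2C12 alone (log2 0.77, SE 0.08, adjusted p = 1.08e-06) and MLg alone (log2 0.89, SE 0.08, adjusted p = 2.49e-07). Mrtfa was lower in EO771 alone than in C2C12 alone (log2 -0.67, SE 0.09, adjusted p = 7.41e-06) and MLg alone (log2 -0.37, SE 0.09, adjusted p = 0.00153). Mrtfb was higher in EO771 alone than in MLg alone (log2 0.35, SE 0.11, adjusted p = 0.00859) and not called against C2C12 alone (adjusted p = 0.0516).

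The fibroblast activation and matrix list, 24 genes, split in EO771. With C2C12, 13 of the 23 tested rose and 5 fell, with a median log2 fold change of 0.60 (all genes 0.00, with 18.7% higher and 14.3% lower). With MLg 8 rose and 6 fell, with a median of 0.35 (all genes 0.01, with 9.59% called and 5.99% higher). At a mean of at least 5 CPM, the largest rises were in fibronectin (Fn1, log2 7.22, SE 0.41, adjusted p = 8.87e-10), Lox (log2 5.37) and the collagen gene Col1a2 (log2 4.52) with C2C12, and Col1a2 (log2 6.91), Fn1 (log2 6.91) and Col1a1 (log2 5.21) with MLg. Their levels were 0.839%, 0.763% and 0.731% of those in C2C12 and 1.42%, 1.38% and 1.51% of those in MLg, beside partner shares of 1.54% and 1.55%. The values with C2C12 are thus below the share of the sums, and under its lowest library (1.01%). They lie within the range of the median gene share, 0.578% to 1.39% by library. With the share subtracted, 6 of 21 rose and 10 fell with C2C12, and 0 rose and 7 fell with MLg. The largest falls, in the fitted values without subtraction, were in Ccn2, a secreted matrix regulator (log2 -2.22), Lrrc15 (log2 -1.88) and Ccn1 (log2 -1.57) with C2C12, and in Lrrc15 (log2 -3.82), Ccn2 (log2 -2.25) and Tgfbi (log2 -1.88) with MLg.

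In the partner lines, with EO771, C2C12 had 1 of 22 called (2.68% of all genes), Twist1. It was at 0 in all 4 libraries alone and at a mean of 0.995 CPM in co-culture. Its mean was 32.8 CPM in EO771 alone and 31.1 CPM in EO771 with C2C12. EO771-specific genes (44 genes) stood in co-cultured C2C12 at 4.56% ± 1.07 (SD, n = 4) of their EO771 level. With that share subtracted 0 of the 21 tested were called. The source of the Twist1 RNA was not tested. MLg had 5 of 22 higher and 1 lower, against 9.89% and 4.81% of all genes. Tgfb1, the growth factor that drives myofibroblast formation (log2 0.90, SE 0.14, adjusted p = 0.00094), Mmp2 (log2 0.61, adjusted p = 0.00547) and Postn (log2 0.59, adjusted p = 0.0395) rose in MLg, and Tnc fell (log2 -0.33, adjusted p = 0.0336). After subtraction 4 of 20 rose and 0 fell.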

How the data were processed

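Per the labels' protocols, RNeasy RNA went into TruSeq stranded mRNA libraries. The authors deposited whole-number counts for each gene, in a separate table for every library. Among the tools in the submitters' processing notes are STAR 2.7.10a and Subread 2.0.1, beside featureCounts, fastp and DESeq2. No source used here gives the genome build or strand setting. All 55536 identifiers matched GENCODE M21 (GRCm38), used for symbols and positions (1-based). Totals ran from 27612567 to 96491326 counts per library, and a count of 0 allows up to 3 counts (counting error only). Every count was even in 5 co-cultured libraries, namely R3-1, R5-1 and R6-1 of EO771 with C2C12 and both R5-1 and R6-1 of MLg with EO771. A pair of EO771 with C2C12 files (R5-1 and R5-2) carries each other's replicate names; each was used under its recorded sample.

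From these counts CPM was computed with library totals. Tests used edgeR 4.0.16 in R 4.3.3 (quasi-likelihood, TMM, filterByExpr with minimum count 10 and total 15, Benjamini-Hochberg over all genes tested, threshold 0.05), in 1 fit each of the EO771, C2C12, MLg, host and alone libraries. The filter drops a gene, not a sample. DESeq2 1.42.0 was an alternative. Partner-specific genes had at least 10 CPM in the partner line, alone and co-cultured, and at most 3 counts summed over the own line alone; their summed level over that in the co-cultured partner is the partner share, and subtraction set negative counts to 0. The likeness measure used log2(CPM + 0.1) of the group means.

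The genes and lists were chosen with earlier results of these data known. All 10 members are named, with at most 3 called genes in each direction per list and comparison at a mean of at least 5 CPM, 4 SRF factors and the 3 genes most like each of Acta2, Tagln, Pdpn and Fap. Twist1 is outside this rule and was named after its values were seen. Alternatives covered scaling, filter, tool, design, single libraries, even counts and the partner share.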

Additional observations from a re-analysis of the deposited data

Results flagged for a closer look

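A library lay far from the other 3 of its group in 7 of the 70 sets of 4 values (the gap to the nearest library, over the range, exceeded Dixon's 95% critical value), and chance flags about 1 in 20 such sets. Cnn1 was 0.602 CPM in EO771 with MLg R5-1, where the others were 0.0980 to 0.163 CPM, and 0.603 CPM in C2C12 with EO771 R5-1, where the others were 0.206 to 0.248 CPM. Tpm2 was 223 CPM in MLg alone R3-2, against 268 to 276 CPM in the others. The same library was lowest in Pdpn, at 4.32 CPM against 9.54 to 10.3 CPM. Pdpn was 9.62 CPM in MLg with EO771 R7-1, against 13.9 to 14.7 CPM. Fap had counts in 1 library each of EO771 with C2C12 (R3-1, 0.0582 CPM) and EO771 with MLg (R7-1, 0.0490 CPM), and was at 0 in the others.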

How the results depend on the processing

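Of the values of members called in the comparisons, 615 of 681 alternatives kept direction and call, 57 lost the call and 9 changed sign; of those not called, 647 of 712 stayed so, 9 became called and 56 changed sign. All 9 sign changes of called values came from subtracting the partner's counts, which sets counts to 0.

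Subtraction at the summed, median gene or myotube marker share gave, for EO771 with C2C12 against EO771 alone, -6.57, -2.02 and -6.54 for Acta2, -7.41, -3.85 and -7.38 for Pdpn, -3.04, -1.35 and -6.96 for Myl9, and -0.14 (myotube share) for Actg2, on the log2 scale. Against EO771 with MLg it gave -7.47, -2.92 and -10.75 for Acta2, -7.82, -4.24 and -8.11 for Pdpn, and -0.54 (myotube share) for Actg2. It left 1 of the 4 calls in EO771 with MLg under both the summed and the median share, and 0 of the 3 in MLg with EO771, with 0.007 for Cnn1 in C2C12. A fit of all 28 libraries also left 0 of the 3 in MLg with EO771; the cause was not tested. Over all genes, calls under the summed and median share were 833 and 862 in EO771 with MLg (1515 without), 121 and 131 in C2C12 with EO771 (445), 780 and 769 in MLg with EO771 (2472) and 39 and 39 for the interaction (343). DESeq2 called 821 and the joint fit 1176 in C2C12, and 731 and 549 for the interaction. MLg calls were 1627 and 1569 without MLg alone R6-1 and R6-2.

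Sign changes among uncalled members were as follows. Without the C2C12 libraries of R3, co-cultured C2C12 gave 0.078 for Acta2, 0.73 for Actg2, 0.20 for Myl9, 0.94 for Cnn1 and 0.10 for Cnn2. Without EO771 with MLg R5-1 and R7-1, Actg2 between co-cultured EO771 groups was -0.40. For the interaction of Actg2, library totals gave 0.094, no filter 0.021, halved even counts 0.014, the joint fit 0.020, subtraction 0.087 and 0.080, and leaving out R3 0.86. Leaving out each replicate, values ran from -0.15 to 0.28 for Actg2 between co-cultured EO771 groups, from -0.41 to 0.13 for Actg2 and -0.56 to 0.36 for Cnn1 in C2C12, and from -0.057 to 0.13 for Tagln in MLg. For the interaction they ran from -0.022 to 0.29 for Acta2, -0.27 to 0.24 for Actg2, -0.12 to 0.34 for Myl9, -0.076 to 0.18 for Cnn2, -0.30 to 0.009 for Tpm2 and -0.81 to 0.067 for Fap.

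With the R number as a replicate block, the members called were 5, 4, 4, 0, 3, 0, 8, 10 and 9 over the 9 comparisons, against 5, 4, 4, 0, 3, 0, 9, 9 and 9 without, in the order EO771 with C2C12, EO771 with MLg, these against each other, C2C12, MLg, the interaction, C2C12 against MLg alone, and EO771 alone against C2C12 and against MLg. Under the replicate block in MLg with EO771, Cnn1 lost its call (adjusted p = 0.0626) and Pdpn gained one (0.00411), and Actg2 was -0.079 between co-cultured EO771 groups and 0.28 in C2C12. Same-numbered libraries correlated in their deviations at 0.09 to 0.14 over the 3 numbers of EO771 with C2C12, at 0.26 and 0.12 in EO771 with MLg, at 0.21 and 0.06 between these, at 0.70 and 0.69 in C2C12 and at -0.25 and 0.20 in MLg. The numbers were not taken as pairs, since no label says what they share. A rule of 3 numbers all correlated above 0.1 could be met only in EO771 with C2C12 against EO771 alone. That contrast fell short, at 0.09 for its lowest. The other contrasts share only 2 numbers, so the rule could not decide for them. The 2 of C2C12, at 0.70 and 0.69, are a hint of pairing from the data.

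Tagln, Cnn1 and Fap rest on few counts in EO771. The 5 libraries with even counts are all co-cultured.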
